A study of Homo sapiens with 6 samples.

Results

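The lysosomal genes of DU145 cells, 58 of the 19727 genes measured, were followed from the transcription factors that switch them on to the enzymes, membrane proteins and proton pump they encode. They comprised a list of 35 genes (3 transcription factors, 6 proteins of the lysosomal membrane, 9 proteases, 8 glycosidases, 6 lipid hydrolases or lipid carriers and 3 sulfatases) and every gene whose symbol began with ATP6V0 or ATP6V1. The prefixes brought in 22 subunit genes of the vacuolar proton pump (V-ATPase) and ATP6V1FNB, a gene beside ATP6V1F that encodes no subunit. Genes were taken by symbol, though the choice was made with earlier results of these data known.

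DU145 is an established human prostate carcinoma cell line. Cells carrying lentivirus-circCSPP1, which overexpresses the circular RNA circCSPP1 (labelled OE), were compared with cells carrying the control lentivirus-NC (labelled NC, the controls below), with 3 libraries in each group. Each group was a puromycin-selected stable line made with its own vector, both groups grew in serum-containing medium, and whether the 3 libraries of a group came from separate cultures is not stated, so p-values measure only the spread between these libraries. The study asked by which process circCSPP1 acts and turned to autophagy, the pathway that delivers cell contents to the lysosome.

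The lysosome is the acidic compartment in which proteins, lipids, glycans and sulfated sugars are broken down. The V-ATPase acidifies it: the V1 sector in the cytosol splits ATP and drives protons through the V0 sector in the membrane. Soluble hydrolases are tagged with mannose 6-phosphate in the Golgi and carried to it, while membrane proteins line it and export the products. TFEB, TFE3 and MITF, the MiT/TFE factors, are held in the cytosol by phosphorylation through mTORC1 and, once in the nucleus, bind the CLEAR element, a palindrome in the promoters of many lysosomal genes.

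Letters from the core of that element, not its full length, were searched in RefSeq promoters, in which 41 of the 58 genes had an entry. The promoters (GRCh38.p14) ran from 250 bases before to 50 bases after each start site, and both strands were searched. TCACGTGA was found in 6 of the 41 (14.6%), against 2.35% of the 9725 tested genes with an entry. A gene counted if any of its promoters held the motif. Counted by promoter and not by gene, the share was 0.980% of all 35116 promoters, which is not a like measure. The shorter TCACGTG, which the longer motif contains, was in 11 of 41 (26.8%, against 7.34% of tested genes), and CACGTG, which both contain, in 12 (29.3%, against 12.8%). These shares are a description, and no test was run on them. The 6 promoters with TCACGTGA are shown around it, in capitals, to place these letters beside the expression values that follow. ATP6V0E2 is shown with them, as the one gene past the test below with an entry that held TCACGTG (in capitals).
LAMP1, chr13:113297184-113297243, plus strand: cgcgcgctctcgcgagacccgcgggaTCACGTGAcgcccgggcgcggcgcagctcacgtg
MCOLN1, chr19:7522556-7522615, plus strand: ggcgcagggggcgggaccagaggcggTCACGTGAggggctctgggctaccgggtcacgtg
CTSA, chr20:45891283-45891342, plus strand: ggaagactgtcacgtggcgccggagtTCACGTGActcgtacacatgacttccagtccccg
GAA, chr17:80101478-80101537, plus strand: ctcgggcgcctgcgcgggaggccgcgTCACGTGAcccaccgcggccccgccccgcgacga
ATP6V1G1, chr9:114587684-114587743, plus strand: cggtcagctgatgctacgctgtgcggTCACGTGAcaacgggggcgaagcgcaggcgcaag
ATP6V0D1, chr16:67481184-67481243, minus strand: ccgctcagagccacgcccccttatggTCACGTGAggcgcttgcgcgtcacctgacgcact
ATP6V0E2, chr7:149872869-149872927, plus strand: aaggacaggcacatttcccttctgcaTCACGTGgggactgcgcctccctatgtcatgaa

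The capitals began between 26 bases (CTSA) and 77 bases (GAA) before the RefSeq start site. A match of letters is a description and does not show that a factor binds. LAMP1 is a heavily glycosylated protein of the lysosomal membrane, MCOLN1 a calcium channel in it, CTSA a carboxypeptidase, GAA the acid glucosidase that degrades glycogen, and ATP6V1G1 and ATP6V0D1 are pump subunits.

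Levels are given in FPKM, the fragments of a gene scaled to transcript length and library size. This scaling sets levels of different genes side by side but does not correct for GC content (the share of bases G and C). Values drifted with GC content between the lentivirus-circCSPP1 libraries, as given below. Read from the steps between low values, each library held 28800000 to 36400000 fragments, so that 1 FPKM on a transcript of 1 kb stood for 28.8 to 36.4 fragments. Libraries of lentivirus-circCSPP1 differed from each other more than those of lentivirus-NC. Among tested lysosomal genes the median range within a group was 0.28 on the log2 scale against 0.12, and replicate 1 of lentivirus-circCSPP1 was the highest of its group in 24 genes and the lowest in 19. CSPP1, whose gene-level value does not separate the linear from the circular RNA, was 9.11, 10.1 and 9.44 FPKM in lentivirus-NC and 14.5, 22.8 and 21.4 FPKM under lentivirus-circCSPP1.

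Markers were checked for the carcinoma epithelium and for other cells. The 5 epithelial genes KRT8, KRT18, EPCAM, CDH1 and KRT19 were present in every library, and all 5 were lower with lentivirus-circCSPP1 (limma adjusted p at most 0.017), their summed level falling from 2271 to 2361 FPKM to between 1046 and 1278 FPKM. Fibroblast genes summed to 2.85 to 4.34 FPKM and to 1.30 to 1.97 FPKM (LUM at 0 throughout), leukocyte genes to 2.34 to 2.72 and 1.02 to 2.85 FPKM (CD3E at 0) and melanocyte genes to 1.61 to 2.36 and 1.59 to 2.62 FPKM (TYR at 0). Mitochondrially encoded genes made up 11.5% to 11.9% of all FPKM in the controls and 6.63% to 8.58% under lentivirus-circCSPP1. The part of these shifts in the results below was not tested, and in bulk RNA fewer cells of a type and less RNA per cell cannot be told apart. For 8 lysosomal genes (CTSL, LGMN, GUSB, IDS, ATP6V0C, ATP6V0E1, ATP6V1E1 and ATP6V1G1) the annotation holds pseudogenes named after them, so their values are uncertain where the authors' counting could split fragments.

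The lysosomal genes did not move as a block. Of the 52 that passed a mean of 1 FPKM, 4 rose and 3 fell with lentivirus-circCSPP1, and the rest did not pass the test. PSAP, GLA, TFE3 and NPC1 were higher, and NPC2, CTSH and ATP6V0E2 were lower. The test was limma on log2(FPKM + 1), two-sided, with p-values adjusted by the Benjamini-Hochberg method over all 12322 tested genes. At an adjusted p of 0.05 it called 7 of 52 lysosomal genes (13.5%), beside 11.4% of all tested genes. The 4 higher genes stood beside a background of 4.69% and the 3 lower ones beside 6.66%. With median-ratio scaling, 3 were higher and 1 lower, and without moderation of the variance 0 were higher and 1 lower (ATP6V0E2), with 6.77% of all tested genes called.

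The center of the lysosomal genes was that of all genes. Their median log2 fold change (the fitted log2 difference, lentivirus-circCSPP1 minus lentivirus-NC) was −0.028, with 23 above 0 and 29 below, and the median of all tested genes was also −0.028. Single changes ran from −0.53 (ARSA) to 0.61 (PSAP), and the median half-width of their 95% intervals was 0.26. In 18 of 52 genes (34.6%) the libraries of the groups did not overlap, 7 higher and 11 lower, beside 36.4% of all tested genes. The calls rested on all 3 controls. No lysosomal gene was called when any 1 lentivirus-NC library was left out, although 8 to 10 then had an unadjusted p under 0.05 in limma, and calls over all tested genes fell to between 2.43% and 3.30%. Without lentivirus-circCSPP1 replicate 1, 14 were called (6 higher, 8 lower, 26.9%, beside 28.5% of all tested genes), without replicate 2 there were 4 (7.69%, beside 9.41%), and without replicate 3 only PSAP (1.92%, beside 3.65%).

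**Figure D1:**
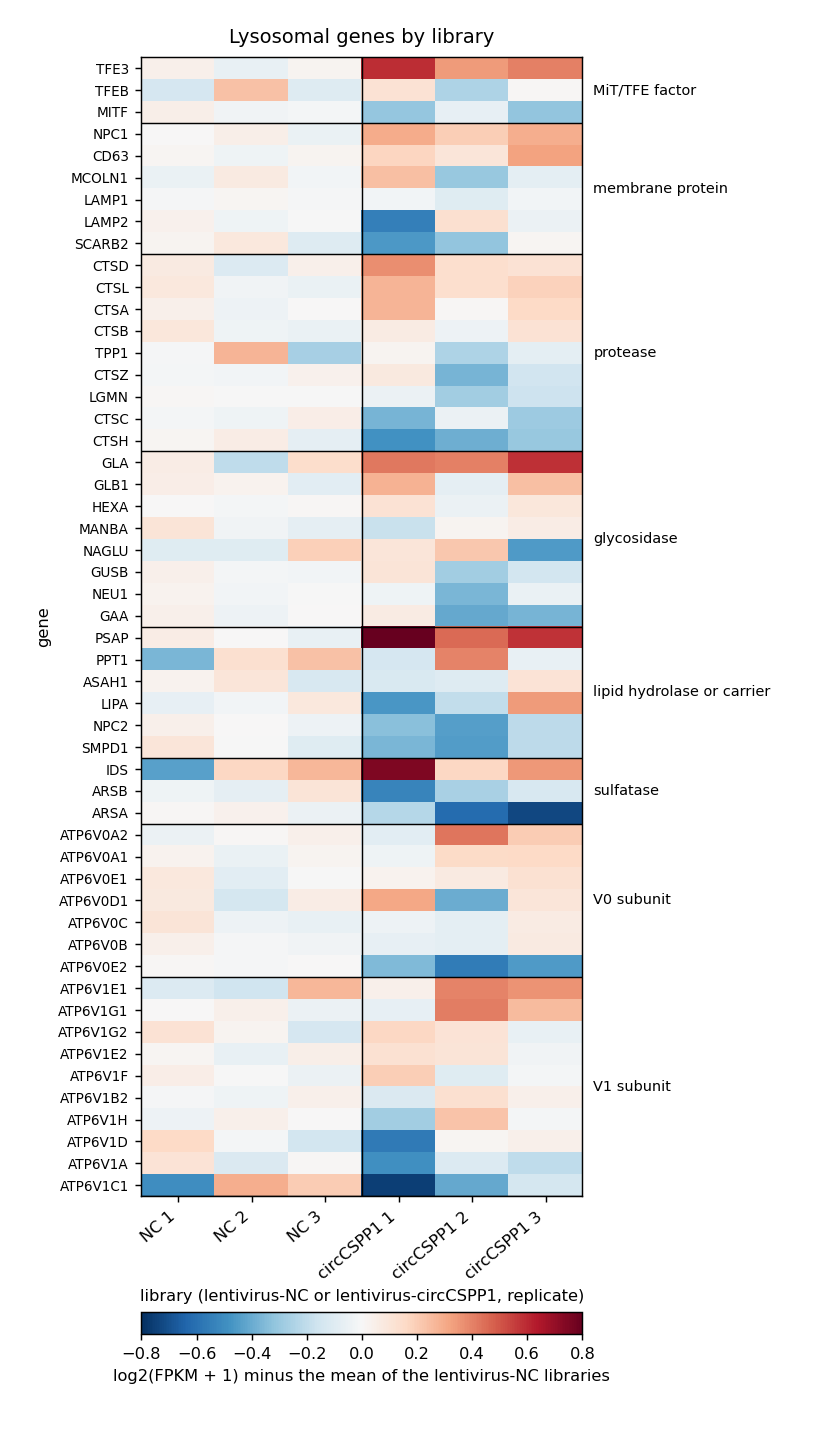
Level of each of the 52 tested lysosomal genes (rows, by class) in each library (columns), as log2(FPKM + 1) minus the mean of the 3 lentivirus-NC libraries, from blue (lower) to red (higher). PSAP, TFE3 and GLA are red in all 3 lentivirus-circCSPP1 libraries, ATP6V0E2, CTSH, NPC2 and ARSA are blue in all 3, and most rows are pale or mixed.

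**Figure D2:**
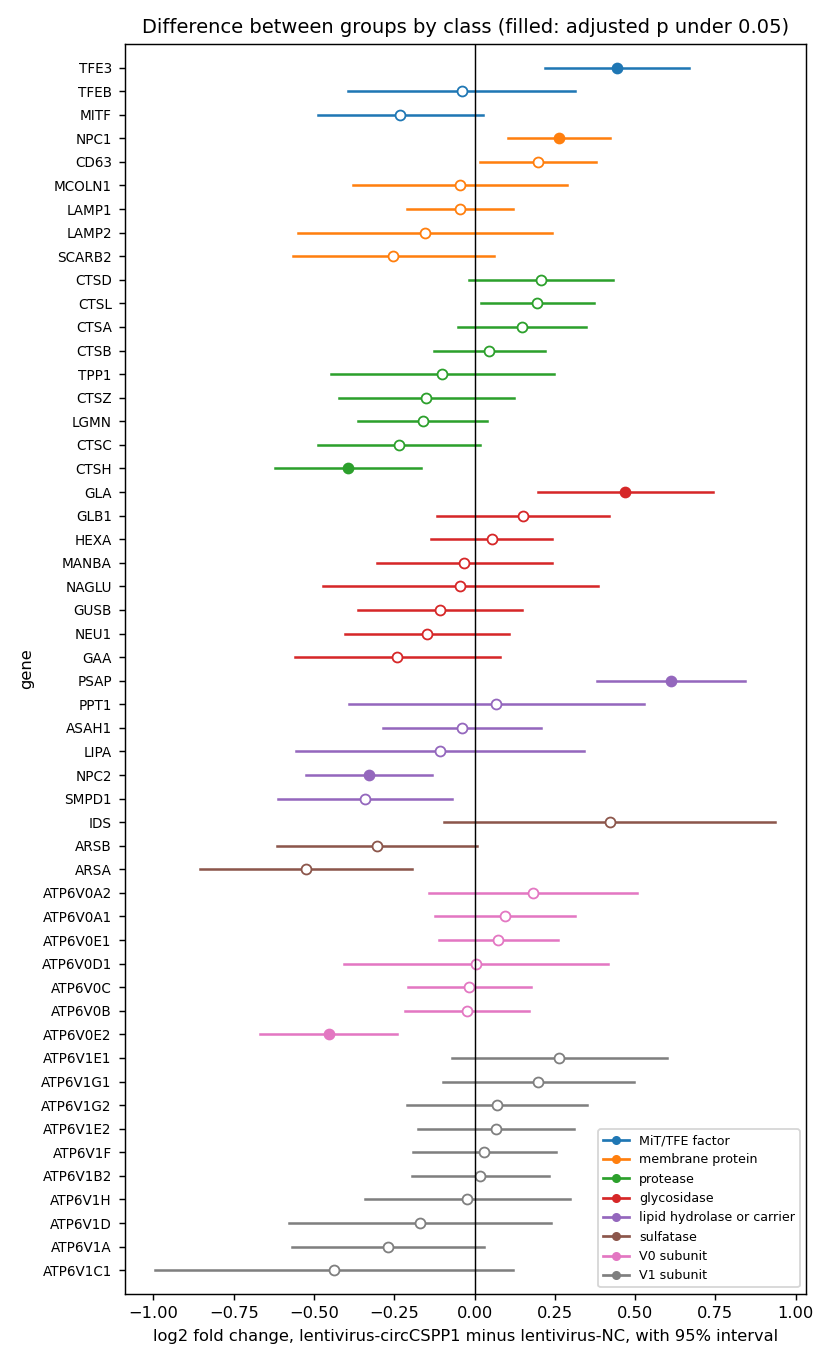
Log2 fold change (x axis) of each tested lysosomal gene (y axis), lentivirus-circCSPP1 minus lentivirus-NC, with its 95% interval as a line and its class by color. The 7 filled points have an adjusted p under 0.05, and the V1 subunits have none.

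Of the MiT/TFE factors, TFE3 was the most abundant and the one that rose. It measured 39.8, 37.0 and 39.2 FPKM in the controls and 58.6, 49.1 and 51.4 FPKM under lentivirus-circCSPP1. Every lentivirus-circCSPP1 library lay above every control. The means were 38.7 ± 1.46 and 53.1 ± 4.97 FPKM (SD, n = 3), a fitted log2 difference of 0.44 (standard error, SE, 0.096, 95% interval 0.22 to 0.67, limma adjusted p = 0.028). TFE3 lies on the X chromosome, 49028726 to 49043486, minus strand (gene coordinates here and below are those of GENCODE 29 on GRCh38). Without any 1 control its adjusted p was 0.10 to 0.13, and without lentivirus-circCSPP1 replicate 3 it was 0.090.

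TFEB, the best known regulator of the class, was low. Its values were 5.90, 7.90 and 6.04 FPKM against 7.21, 5.37 and 6.60 FPKM, so the groups overlapped (means 6.61 ± 1.12 and 6.39 ± 0.937 FPKM, SD, n = 3). The log2 fold change was −0.04 (95% interval −0.39 to 0.31, adjusted p = 0.89 from limma), and its sign turned with quantile normalization. MITF, known as the melanocyte factor, was at 13.7, 13.0 and 13.1 FPKM against 10.49, 12.59 and 10.45 FPKM. All 3 lentivirus-circCSPP1 values lay below the controls, with a log2 fold change of −0.23 that did not pass the test (95% interval −0.49 to 0.025, limma adjusted p = 0.22). As a share of the FPKM of the 3 genes, TFE3 held 66.1% ± 1.82 in the controls and 75.0% ± 1.79 in lentivirus-circCSPP1 (SD, n = 3), which is a description because TFE3 had already been called. For any such single value an exact two-sided permutation test of 3 libraries against 3 cannot give a p below 0.10.

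**Figure D3:**
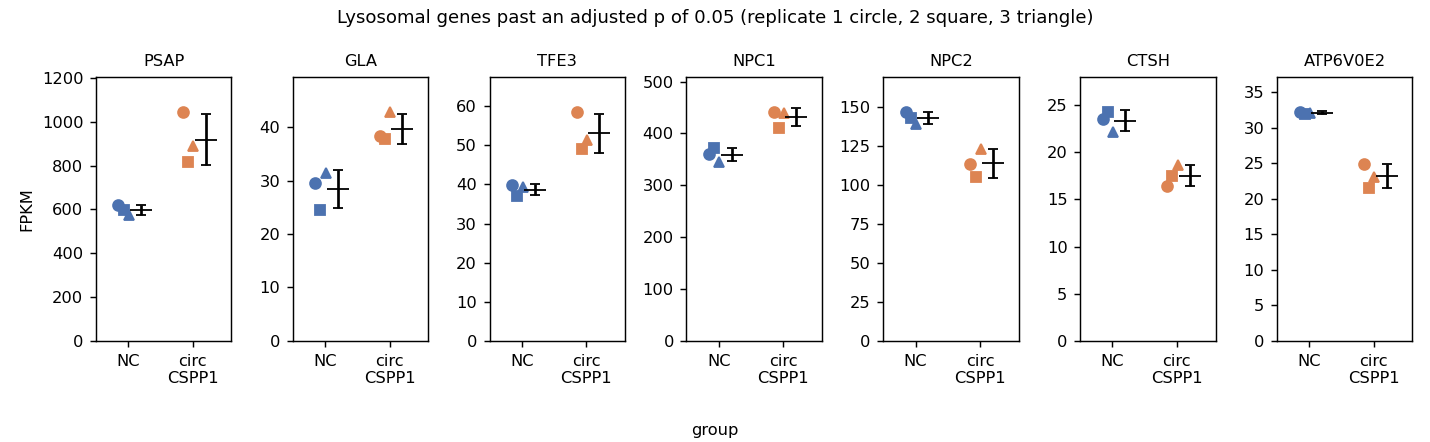
FPKM (y axis, from 0) of the 7 lysosomal genes past an adjusted p of 0.05, by group, with each library as a symbol and the mean ± SD (n = 3) as a bar. In PSAP, GLA, TFE3 and NPC1 the 3 lentivirus-circCSPP1 libraries lie above the 3 controls, in NPC2, CTSH and ATP6V0E2 below them, and replicate 1 is the highest lentivirus-circCSPP1 library in PSAP, TFE3, NPC1 and ATP6V0E2.

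Among the membrane proteins 1 of 6 was called (16.7%, beside 11.4% of all tested genes). NPC1, the transporter that takes cholesterol out of the lysosome, was at 360.3, 371 and 346 FPKM in the controls and at 442, 411 and 440.0 FPKM under lentivirus-circCSPP1. The groups did not overlap, with means of 359 ± 12.8 and 431 ± 17.3 FPKM (SD, n = 3). Its fitted log2 difference was 0.26 (SE 0.068, 95% interval 0.10 to 0.42, limma adjusted p = 0.049). The gene lies on chromosome 18, 23506184 to 23586898, minus strand. The call was at the edge of the threshold, with an adjusted p of 0.14 to 0.19 without 1 control, of 0.17 at most without 1 lentivirus-circCSPP1 library (replicate 3), and also lost with median-ratio scaling.

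CD63, a tetraspanin of lysosomes and exosomes and the most abundant of the class, was at 420.2, 405 and 422 FPKM against 468, 445 and 519 FPKM. These values did not overlap, and the log2 fold change of 0.20 (95% interval 0.017 to 0.38) did not pass (limma adjusted p = 0.15). The structural proteins LAMP1 and LAMP2 did not pass either. LAMP1 was within 93.2 to 101 FPKM in all 6 libraries (log2 fold change −0.05, 95% interval −0.21 to 0.12). LAMP2 was 27.7, 26.4 and 27.0 FPKM against 18.2, 29.6 and 26.2 FPKM, where replicate 1 stood apart from its own group. The other 2, the calcium channel MCOLN1 and SCARB2, the receptor that carries glucocerebrosidase, had log2 changes of −0.05 and −0.25 (adjusted p = 0.87 and 0.26 from limma).

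Among the 9 proteases the most abundant did not pass the test, and the single call was a fall (11.1%, beside 11.4% of all tested genes called). CTSB, a cysteine protease and the most abundant lysosomal gene in the controls, was at 677, 620.4 and 613 FPKM against 664, 619.6 and 688 FPKM. The groups overlapped (means 637 ± 35.1 and 657 ± 34.7 FPKM, SD, n = 3), and the log2 fold change was 0.05 (95% interval −0.13 to 0.22, limma adjusted p = 0.73). CTSL, another cysteine protease, was at 253, 234 and 229.8 FPKM against 288, 262 and 271 FPKM. Its groups did not overlap, but the log2 fold change of 0.20 (95% interval 0.020 to 0.37) did not pass (limma adjusted p = 0.14). The aspartic protease CTSD behaved alike, with 191, 168 and 187 FPKM against 235, 199 and 197 FPKM and a log2 change of 0.21 (limma adjusted p = 0.21).

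CTSH, a cysteine protease that acts mainly as an aminopeptidase, was at 23.5, 24.3 and 22.1 FPKM in the controls and 16.38, 17.49 and 18.65 FPKM under lentivirus-circCSPP1. All lentivirus-circCSPP1 values were below the controls. The means were 23.3 ± 1.12 and 17.5 ± 1.14 FPKM (SD, n = 3), a fitted log2 difference of −0.39 (SE 0.097, 95% interval −0.62 to −0.17, limma adjusted p = 0.041), at chromosome 15, 78921058 to 78949574, minus strand. Without 1 control its adjusted p was 0.12 to 0.18, without lentivirus-circCSPP1 replicate 2 or 3 it was at most 0.096, and median-ratio scaling also ended the call. Of the other 5 proteases, CTSA had a log2 change of 0.15 and CTSC, CTSZ, LGMN and TPP1 lay between −0.24 and −0.10. None of these passed.

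Among the 8 glycosidases, only GLA was called, and it rose (12.5%, beside 11.4% of all tested genes called). GLA encodes alpha-galactosidase A, which removes galactose from globotriaosylceramide and is deficient in Fabry disease. Its values were 29.59, 24.45 and 31.35 FPKM in the controls and 38.35, 37.74 and 42.90 FPKM under lentivirus-circCSPP1, with no overlap, although the lowest control stood apart from the other two. The means were 28.5 ± 3.59 and 39.7 ± 2.82 FPKM (SD, n = 3), a fitted log2 difference of 0.47 (SE 0.12, 95% interval 0.20 to 0.74, limma adjusted p = 0.044), on the X chromosome, 101397803 to 101408012, minus strand. Without 1 control the adjusted p was 0.085 to 0.15, and without lentivirus-circCSPP1 replicate 2 or 3 it was at most 0.15.

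The most abundant glycosidases were GUSB and HEXA. GUSB, the beta-glucuronidase, was at 79.6, 76.4 and 76.2 FPKM against 83.3, 63.7 and 69.7 FPKM, a log2 fold change of −0.11 (95% interval −0.36 to 0.15, limma adjusted p = 0.57). HEXA, the alpha subunit of beta-hexosaminidase A, was at 66.35, 65.30 and 66.59 FPKM against 71.7, 63.9 and 70.5 FPKM, a log2 fold change of 0.05 (95% interval −0.14 to 0.24, limma adjusted p = 0.72). Both overlapped between the groups. The other 5 (GLB1, GAA, MANBA, NEU1 and NAGLU) had log2 changes from −0.24 for GAA to 0.15 for GLB1, none past the test.

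The lipid class held the largest change. PSAP encodes prosaposin, which is cut into the saposins, small proteins that lift sphingolipids out of membranes for the hydrolases. It was at 622, 598 and 573 FPKM in the controls and at 1047, 818 and 891 FPKM under lentivirus-circCSPP1. The lowest lentivirus-circCSPP1 library stood well above the highest control. The means were 598 ± 24.6 and 918 ± 117 FPKM (SD, n = 3), a fitted log2 difference of 0.61 (SE 0.098, 95% interval 0.38 to 0.84, limma adjusted p = 0.011). The gene lies on chromosome 10, 71816298 to 71851375, minus strand. PSAP stayed past the threshold without any 1 lentivirus-circCSPP1 library (adjusted p 0.0029 to 0.047) and missed it without any 1 control (0.051 to 0.062).

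PSAP alone held 12.2% ± 0.354 of the summed FPKM of all lysosomal genes in the controls and 16.9% ± 1.49 in lentivirus-circCSPP1 (SD, n = 3). The sum of the 58 genes was 4903 ± 89.7 and 5422 ± 265 FPKM (SD, n = 3), and without PSAP it was 4305 ± 72.04 and 4503 ± 177 FPKM. The groups did not overlap in the first sum and overlapped in the second. The lysosomal genes thus made up 0.803% to 0.937% of the summed FPKM of a library.

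NPC2, the soluble protein that hands cholesterol to NPC1, went the other way. It was at 147, 143 and 139 FPKM in the controls and 113, 105 and 123 FPKM under lentivirus-circCSPP1, with no overlap. The means were 143 ± 4.10 and 114 ± 9.22 FPKM (SD, n = 3), a fitted log2 difference of −0.33 (SE 0.084, 95% interval −0.53 to −0.13, limma adjusted p = 0.047). It lies on chromosome 14, 74476192 to 74494177, minus strand. This was the least stable call, past the threshold under 6 of 18 alternatives. Its adjusted p was 0.14 to 0.19 without 1 control and up to 0.083 without 1 lentivirus-circCSPP1 library (replicates 2 and 3), and rescaling to TPM, median-ratio scaling and correction for GC content and length ended it as well.

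The 2 proteins of cholesterol export were thus called in opposite directions. The FPKM of NPC1 was 2.45, 2.60 and 2.49 times that of NPC2 in the controls and 3.91, 3.92 and 3.57 times in lentivirus-circCSPP1. This ratio was formed after both values were seen and is a description. The other 4 genes of the lipid class did not pass. SMPD1, the acid sphingomyelinase, was at 5.80, 5.37 and 4.97 FPKM against 3.94, 3.67 and 4.51 FPKM, with no overlap and a log2 fold change of −0.34 (limma adjusted p = 0.10). ASAH1 (acid ceramidase), LIPA (acid lipase) and PPT1 (palmitoyl-protein thioesterase) lay between −0.11 and 0.07.

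None of the 3 sulfatases passed, and they had the lowest median log2 fold change of any class, −0.30. ARSA, the arylsulfatase that degrades sulfatide, came closest. It was at 20.4, 20.8 and 19.6 FPKM in the controls and 17.1, 12.9 and 11.8 FPKM under lentivirus-circCSPP1, with no overlap. Its log2 fold change of −0.53 (SE 0.14, 95% interval −0.86 to −0.19) missed the threshold in limma (adjusted p = 0.055). After correction for GC content and length the limma adjusted p was 0.0046, and without lentivirus-circCSPP1 replicate 1 it was 0.0028. Those fits called 28.6% and 28.5% of all tested genes. ARSA passed in 3 of 18 alternatives, and without 1 control its limma adjusted p was 0.15 to 0.19. IDS, the iduronate sulfatase, varied more within the groups than between them, at 10.6, 16.5 and 17.8 FPKM against 25.25, 16.51 and 18.90 FPKM (log2 fold change 0.42, 95% interval −0.096 to 0.94, limma adjusted p = 0.26). ARSB, which acts on dermatan sulfate, had a log2 change of −0.30 (limma adjusted p = 0.19).

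Among the pump genes with the prefixes ATP6V0 and ATP6V1 a single gene was called, ATP6V0E2, which fell. Of these 22 subunit genes 17 were tested, so the call was 5.88% of them, beside 11.4% of all tested genes. In 1 of the 17 (5.88%) the libraries of the groups did not overlap, against 17 of the 35 other lysosomal genes (48.6%) and 36.4% of all tested genes. The difference between those shares was not tested. The median log2 fold change was 0.018, with a range from −0.45 to 0.26. The summed level was 979 ± 30.6 FPKM in the controls and 1007 ± 46.1 FPKM under lentivirus-circCSPP1 (SD, n = 3), a difference within the spread of the libraries. Without lentivirus-circCSPP1 replicate 1, ATP6V1G1 (log2 fold change 0.33, limma adjusted p = 0.017) and ATP6V0A2 were called higher as well. That fit called 28.5% of all tested genes.

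ATP6V0E2 encodes an isoform of subunit e, a small membrane protein of the V0 sector, and its promoter window with TCACGTG is shown above. It was at 32.3, 31.9 and 32.1 FPKM in the controls and at 24.9, 21.5 and 23.1 FPKM under lentivirus-circCSPP1. The controls were nearly equal, and all 3 lentivirus-circCSPP1 libraries lay below them. The means were 32.1 ± 0.196 and 23.2 ± 1.71 FPKM (SD, n = 3), a fitted log2 difference of −0.45 (SE 0.092, 95% interval −0.67 to −0.24, limma adjusted p = 0.023). The gene lies on chromosome 7, 149872968 to 149891204, plus strand. Its adjusted p was 0.099 to 0.11 without 1 control and 0.087 without lentivirus-circCSPP1 replicate 3.

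Its paralog ATP6V0E1 carried most of the subunit e transcripts and was not called. ATP6V0E1 was at 106.72, 95.02 and 100.52 FPKM against 103, 106 and 109.6 FPKM (log2 fold change 0.07, 95% interval −0.11 to 0.26, limma adjusted p = 0.59). ATP6V0E2 thus made up 23.2%, 25.1% and 24.2% of subunit e FPKM in the controls and 19.5%, 16.9% and 17.4% in lentivirus-circCSPP1. The most abundant V0 gene, ATP6V0C, encodes the proteolipid of the rotating ring and was at 154, 139 and 137 FPKM against 139, 136 and 150.1 FPKM. Its log2 fold change of −0.02 (95% interval −0.21 to 0.17, adjusted p = 0.92 from limma) changed sign with TPM and with median-ratio scaling. ATP6V0B, ATP6V0D1, ATP6V0A1 and ATP6V0A2 had log2 changes of −0.02, 0.0036, 0.09 and 0.18 and did not pass.

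In the V1 sector none of 10 tested genes passed, and in none were the groups apart. Of all tested genes 11.4% were called and in 36.4% the groups did not overlap. ATP6V1E1, which encodes subunit E of the peripheral stalk, was the most abundant at 147, 142 and 191 FPKM against 163, 208 and 203 FPKM (log2 fold change 0.26, 95% interval −0.071 to 0.60, limma adjusted p = 0.28). ATP6V1F, subunit F of the central rotor, was at 119, 114 and 111 FPKM against 132, 107 and 114 FPKM (log2 fold change 0.03, 95% interval −0.19 to 0.25, limma adjusted p = 0.87). Both catalytic-core genes, ATP6V1A and ATP6V1B2, overlapped between the groups at log2 fold changes of −0.27 and 0.02. ATP6V1C1, subunit C, had the widest interval, from −0.99 to 0.12 around −0.44, at 18.25, 32.19 and 30.22 FPKM in the controls and 15.06, 19.40 and 23.57 FPKM under lentivirus-circCSPP1. The first control was low beside the other two.

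For subunits B, E, G, C and d the ubiquitous isoform held nearly all of the level. ATP6V1B2 held 98.7% and 98.6% of subunit B FPKM in the 2 groups, ATP6V1E1 95.8% and 96.3% of subunit E, ATP6V1G1 97.2% and 97.3% of subunit G, ATP6V1C1 99.7% and 99.3% of subunit C and ATP6V0D1 99.9% and 99.6% of subunit d. These shares overlapped between the groups. Of the 6 genes below the test's minimum, ATP6V1B1, a subunit known from kidney and inner ear, was at 0.49 to 0.94 FPKM, and ATP6V1G3 was at 0 in all 6 libraries. ATP6V0A4 was at 0, 0.11 and 0.06 FPKM against 0.20, 0.22 and 0.26 FPKM, while ATP6V1C2, ATP6V0D2 and ATP6V1FNB did not exceed 0.65 FPKM.

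**Figure D4:**
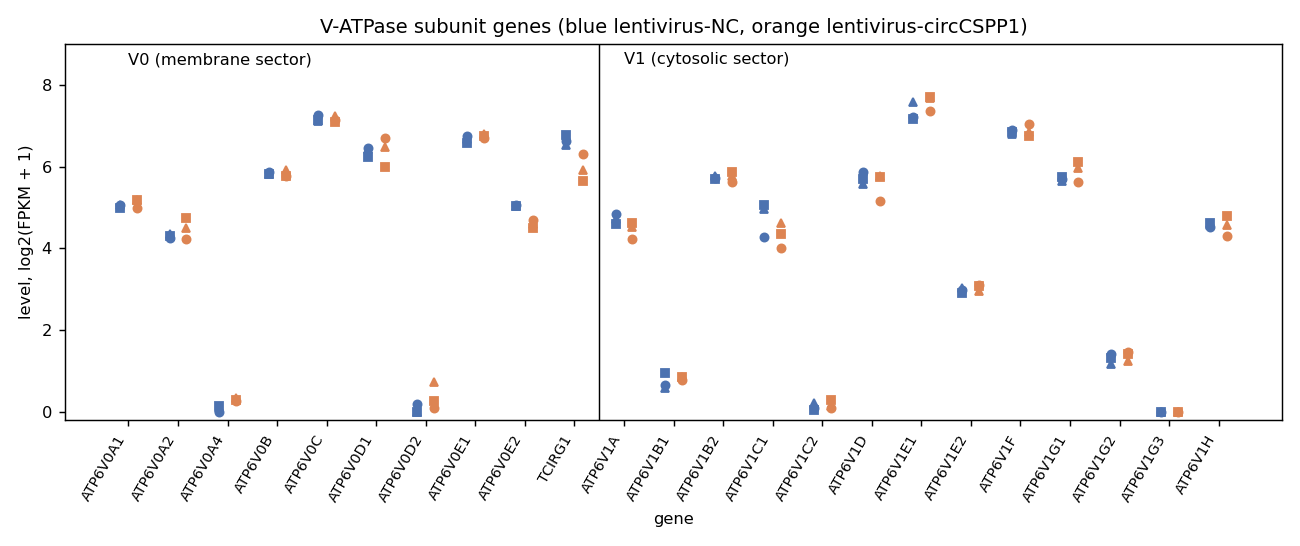
Level, log2(FPKM + 1), of each V-ATPase subunit gene (x axis) in the 3 lentivirus-NC (blue) and 3 lentivirus-circCSPP1 (orange) libraries, with replicates 1, 2 and 3 as circle, square and triangle. TCIRG1, the remaining subunit a gene, is drawn with V0. In ATP6V0E2 and TCIRG1 all 3 lentivirus-circCSPP1 libraries lie below the controls, and in the other tested genes the groups overlap.

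TCIRG1, which encodes the a3 isoform of the V0 subunit a and carries another prefix, came from a list of pump-related genes. It was at 98.5, 108 and 91.3 FPKM in the controls and 77.7, 48.8 and 59.2 FPKM under lentivirus-circCSPP1. All 3 were below the controls, with a fitted log2 difference of −0.69 (SE 0.16, limma adjusted p = 0.037). The call was lost without any 1 control, without lentivirus-circCSPP1 replicate 2 or 3, and with median-ratio scaling. It was also lost with no filter on low values and without moderation of the variance. Subunit a spans the membrane and its isoforms are known to steer the pump to different compartments. The a3 gene held 66.2%, 68.5% and 63.9% of the FPKM of the 4 subunit a genes in the controls and 61.5%, 44.4% and 50.7% in lentivirus-circCSPP1. The share of ATP6V0A1 was 21.2% ± 1.61 against 28.98% ± 4.06 and that of ATP6V0A2 12.6% ± 0.827 against 18.6% ± 4.64 (SD, n = 3), and neither of those genes passed on its own level. The sum of the 4 was 150 ± 7.18 against 118 ± 8.26 FPKM (SD, n = 3), with no overlap.

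The 6 genes with TCACGTGA in the promoter windows printed earlier did not share a direction. Their log2 fold changes were −0.05 for LAMP1, −0.05 for MCOLN1, 0.15 for CTSA, −0.24 for GAA, 0.20 for ATP6V1G1 and 0.0036 for ATP6V0D1, and none passed an adjusted p of 0.05. After correction for GC content and length ATP6V1G1 (0.26, limma adjusted p = 0.011) and CTSA (0.17, limma adjusted p = 0.045) passed. That fit called 28.6% of all tested genes. Without lentivirus-circCSPP1 replicate 1 ATP6V1G1 and GAA passed (0.33 and −0.39, limma adjusted p = 0.017 and 0.0065), in a fit that called 28.5%. GLA, TFE3, NPC1, NPC2 and CTSH, which had a promoter entry and were called, held none of the 3 motifs in the window. PSAP had no entry.

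Further genes of the pathway were taken from 6 lists that hold none of the 58. Of their 101 tested genes 9 were called (8.91%, beside 11.4%), all lower with lentivirus-circCSPP1. Of all tested genes 6.66% were called lower and 4.69% higher. With median-ratio scaling 1 pathway gene was higher and 3 lower, and with quantile normalization 2 were higher and 7 lower. With no filter on low values 5 were lower, 4 of them among the 9. Without moderation of the variance 1 was higher and 3 lower. After correction for GC content and length 10 were higher and 18 lower, in a fit that called 28.6% of all tested genes. Without any 1 control, or without lentivirus-circCSPP1 replicate 3, only GM2A remained of the 9, and without replicate 2 there were GM2A, GNPTAB and SUMF1, whereas without replicate 1 the lists held 9 higher and 25 lower, in a fit that called 28.5% of all tested genes.

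Of 27 other hydrolases and activators, 4 fell (14.8%, beside 6.66% of all tested genes called lower). GM2A, the activator protein that presents GM2 ganglioside to beta-hexosaminidase A, was at 40.91, 39.75 and 40.05 FPKM in the controls and 23.2, 25.5 and 26.6 FPKM under lentivirus-circCSPP1. This was the most stable fall, with a fitted log2 difference of −0.66 (SE 0.089, limma adjusted p = 0.0064) in a gene that works, like PSAP, by lifting lipids to enzymes. PSAP was 14.9 ± 0.478 times as high as GM2A in the controls and 36.9 ± 7.11 times in lentivirus-circCSPP1 (SD, n = 3), a ratio formed after the values were seen. FUCA1 (a fucosidase), SIAE (a sialic acid esterase) and CTSV (a cathepsin close to CTSL) had log2 changes of −0.57, −0.51 and −0.45 (limma adjusted p = 0.027, 0.043 and 0.041). The median of the list was −0.14.

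Of the 10 genes listed as tagging, sorting or activating hydrolases, 2 fell (20%, beside 6.66% of all tested genes called lower). Of these 2, GNPTAB acts in tagging and SUMF1 in activation. GNPTAB encodes the catalytic part of the transferase that starts the mannose 6-phosphate tag. It was at 48.1, 46.9 and 49.4 FPKM in the controls and 23.5, 34.9 and 31.0 FPKM under lentivirus-circCSPP1, a fitted log2 difference of −0.69 (SE 0.14, limma adjusted p = 0.024). SUMF1, which activates sulfatases by converting a cysteine in their active site, was at 30.35, 31.57 and 25.93 FPKM against 19.25, 23.63 and 18.96 FPKM, a log2 fold change of −0.49 (limma adjusted p = 0.047). The mannose 6-phosphate receptors M6PR and IGF2R were not called (0.02 and 0.19).

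In the remaining lists 2 genes were called beside TCIRG1. The shares called were 16.7% of 12 pump-related genes and 7.14% of 14 fusion genes, beside 11.4% of all tested genes. ROGDI, assigned to the complex that joins V1 to V0, had a log2 change of −0.57 (limma adjusted p = 0.046) among 12 pump-related genes. VAMP8, a SNARE protein of autophagosome fusion, had a log2 change of −0.33 (limma adjusted p = 0.046) among 14 fusion genes. None of 23 other membrane proteins passed (median −0.06), of which TPCN1 and LAPTM4A were the most abundant (log2 fold changes 0.06 and −0.27). By limma 2 of them had an unadjusted p under 0.05. None of 15 genes of nutrient sensing at the lysosome passed (median 0.08, 4 with an unadjusted p under 0.05 by limma), of which LAMTOR2 and LAMTOR1, subunits of the Ragulator complex, were the most abundant (log2 fold changes −0.23 and 0.22).

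The spread within lentivirus-circCSPP1 moved with the base composition of the transcripts. The departure of replicate 1 from the mean of replicates 2 and 3 had a Spearman correlation of 0.74 with GC content across the 52 tested lysosomal genes, which share their libraries, and of 0.78 across all 12305 tested genes with a transcript. LAMP2, with 37.7% GC, was 0.59 lower in replicate 1 on the log2 scale, and ARSA, with 66.0% GC, was 0.44 higher. The V-ATPase genes lay at a median GC content of 47.3% and the other lysosomal genes at 52.5%. After a correction of each library for GC content and length, 10 lysosomal genes were called, 7 higher and 3 lower (19.2%, beside 28.6% of all tested genes), among them 6 of the 7 above.

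**Figure D5:**
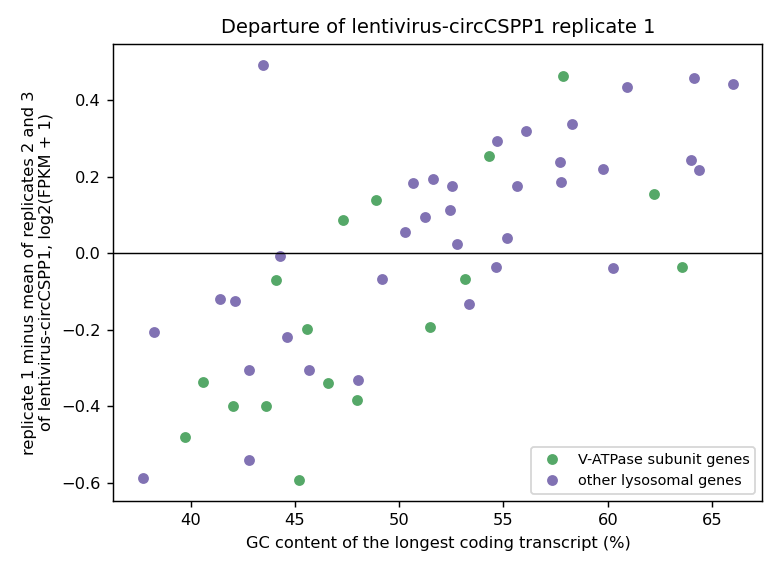
Departure of lentivirus-circCSPP1 replicate 1 from the mean of replicates 2 and 3 on log2(FPKM + 1) (y axis) against the GC content of the longest coding transcript in percent (x axis), with 1 point for each of the 52 tested lysosomal genes (V-ATPase subunits green, others purple). Genes of low GC content lie mostly below 0 and those of high GC content mostly above it, with a Spearman correlation of 0.74.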

How the data were processed

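The authors isolated polyadenylated RNA, sequenced it as paired ends and deposited 1 table of FPKM values for 19727 genes in 6 libraries, rounded to 2 decimals. Their processing notes name hg38, and the aligner, counting program and annotation are not given in the sources used here. Because FPKM is no count, tests were run on a log scale, and any value shifts when the rest of its library does. Columns were matched to samples by group and replicate number, and 0 columns were left unused. Values were taken to log2(FPKM + 1), which understates changes of low genes. Genes whose mean over the libraries reached 1 FPKM were fitted together with limma 3.58.1 in R 4.3.3 (lmFit, then eBayes with its trend option, no covariate, two-sided tests, Benjamini-Hochberg over all of them). The fit was first run on simulated data with independent noise and 200 genes changed by 2 on the log2 scale. That run did not cover changes as small as those of the lysosomal genes, or error that genes of a library share.

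The lysosomal genes and the pathway and marker lists were chosen with earlier results of these data known. Some genes of these lists are not reported here. Full statistics were given for called genes, the MiT/TFE factors and the 2 most abundant genes of each class, and for called genes of each pathway list (at most 4) or otherwise its 2 most abundant. Other genes, and all ratios, were picked after their values were seen. Depth was read from FPKM multiplied by length in genes with a single transcript under 800 nt, where 92.7% to 97.6% of 74 to 89 values per library were whole within 0.15 of a step (30% by chance). Lengths, GC content and coordinates came from GENCODE 29. The 18 alternatives changed the pseudocount (0.1, 0.01), the filter (none, a mean of 5 FPKM), the scaling (TPM, median ratio, quantile), the moderation, the replicate block, GC and length (loess with a span of 0.3), and the libraries, each left out in turn.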

Additional observations from a re-analysis of the deposited data

How the results depend on the processing

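The 7 called genes kept their sign under all 18 alternatives, and PSAP passed in 14 of them, ATP6V0E2 in 13, TFE3 in 12, NPC1, CTSH and GLA in 10 each and NPC2 in 6. Against 4 genes called higher and 3 lower, median-ratio scaling gave 1 lower, no moderation of the variance gave 0 higher and 1 lower, and the GC and length correction gave 7 higher. Leaving out 1 library at a time gave 0 to 6 higher, 0 to 8 lower and a median log2 fold change of −0.050 to 0.012. The median was 0.011 with median-ratio scaling and 0.012 without lentivirus-circCSPP1 replicate 1. The cause of these shifts was not tested.

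With the replicate block 1 gene was higher (PSAP) and 0 lower, and 923 of all tested genes were called against 1399. Of the 9 pathway genes called lower, 3 stayed past the threshold with the block. GEO's design text calls the cells paired. Deviations of libraries with the same number correlated at 0.073, 0.0065 and 0.057 across genes. Lentivirus-NC replicates 1 and 3 correlated best with the lentivirus-circCSPP1 library of their own number, and replicate 2 with lentivirus-circCSPP1 replicate 3 (0.0090). These correlations were small, so the numbers were not taken to pair the libraries, and the pairing stays unsettled.

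Uncalled genes near 0 changed sign. Without 1 library in turn ATP6V0C ran from −0.059 to 0.034, TFEB from −0.12 to 0.077 and ATP6V1F from −0.054 to 0.093. ATP6V0C turned to 0.0016 with TPM, 0.026 with median-ratio scaling and 0.00066 with the GC and length correction with or without the replicate block. TFEB turned to 0.038 with quantile normalization. With 3 libraries a group, half-widths of the 95% intervals reached 0.56 on the log2 scale.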

Other observations

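Some values outside the comparisons were picked after they were seen. With no filter on low values, ATP6V0A4, the subunit a isoform known from kidney, passed an adjusted p of 0.05 in limma at levels of 0 to 0.26 FPKM. FLCN, which acts on the Rag GTPases to keep TFEB and TFE3 in the cytosol, was at 14.4, 13.1 and 12.7 FPKM in lentivirus-NC and 21.3, 16.4 and 17.4 FPKM in lentivirus-circCSPP1, with no overlap and a log2 fold change of 0.42 that did not pass (limma adjusted p = 0.070). Its partner FNIP1 was at 4.11, 3.91 and 4.15 FPKM against 4.48, 7.61 and 6.17 FPKM (log2 fold change 0.46, limma adjusted p = 0.12). The Rag GTPases RRAGA and RRAGB lay on opposite sides, with log2 fold changes of −0.32 and 0.45 (limma adjusted p = 0.074 and 0.057).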
